A study of Mus musculus with 27 samples.

Results

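Cytosolic ribosomal protein genes were examined in mouse E14 cells, an embryonic stem cell line grown with LIF on gelatin. Members were the rows whose symbol follows the naming of the cytosolic large-subunit proteins (Rpl and a number, Rplp0 to Rplp2) or small-subunit proteins (Rps and a number, Rpsa), including paralogs ending in l or l1. This naming gave 89 of the 53379 genes of the table, 53 of the large and 36 of the small subunit. Of these, 83 were annotated as protein coding, 5 as processed pseudogenes (Rpl32l, Rpl6l, Rps12l1, Rps3a2 and Rps3a3) and 1, Rps4l, as a transcribed processed pseudogene. The cells received siRNA against GFP as the control (siGFP), against Ptbp1 (siPTBP1), or against both PTB genes (siPTBP1+siPTBP2). They were transfected again at 24 h and collected at 48 h, and were separated into cytoplasm (CY), nucleoplasm (NP) and chromatin (CH). Polyadenylated RNA was sequenced from 3 replicates of each of the 9 combinations, 27 libraries in all. All groups shared the transfection and the E14 background, which is a single line. Values are TPM, transcripts scaled per length to a fixed library total, so a TPM is a share of a fraction's RNA and amounts per cell cannot be compared between fractions. In bulk RNA, fewer cells and less RNA per cell cannot be told apart. The number of reads behind the values is unknown. Replicate 1 stood apart in all 9 groups: 21.4% to 40.6% of all genes tested were more than 1.5 times below both other replicates, against at most 9.58% in any replicate 2 or 3 library.

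Ribosomal proteins are made in the cytoplasm, imported into the nucleolus, and assembled on ribosomal RNA into the large and small subunits. Their mRNAs begin with a terminal oligopyrimidine (TOP) tract, which couples their translation to mTOR signalling. They are short, abundant and stable, and many of their introns carry small nucleolar RNAs. Mammalian genomes also hold many processed copies of them, reverse transcribed from the mRNA and inserted elsewhere without introns. PTBP1 is an RNA-binding protein that represses many neuronal exons, and PTBP2 is its paralog in neurons.

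Processed copies bear directly on the levels below, so the sequences of 4 genes and their copies are shown first. Each run is 90 nt of coding sequence from GENCODE M21 on GRCm38, the assembly also called mm10, with positions counted from 1 at the start codon. Capitals mark bases of a copy that differ from the gene. Rpl12, a protein of the large-subunit stalk base, lies at chr2:32961559-32965345 on the plus strand. Its copy Gm10275, a transcribed processed pseudogene at chr10:29698746-29699380 on the minus strand, carried the same 495 coding bases with 0 differences, whereas Gm11425, at chr11:83027500-83027997 on the minus strand, differed at 2 of coding bases 136 to 225.
Rpl12: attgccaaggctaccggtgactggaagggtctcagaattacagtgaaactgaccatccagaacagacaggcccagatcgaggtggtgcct
Gm10275: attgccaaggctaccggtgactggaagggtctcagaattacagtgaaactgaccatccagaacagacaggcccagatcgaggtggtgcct
Gm11425: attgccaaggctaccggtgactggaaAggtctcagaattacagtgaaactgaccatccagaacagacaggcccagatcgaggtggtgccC

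Rpl5, which binds 5S ribosomal RNA, lies at chr5:107900502-107909005 on the plus strand. Its copy Gm15500, a transcribed processed pseudogene at chr7:114705217-114706235 on the minus strand, held the same 891 coding bases with 0 differences. Coding bases 231 to 320 are shown beside the more diverged Rpl5-ps2, at chr2:154703809-154704699 on the plus strand.
Rpl5: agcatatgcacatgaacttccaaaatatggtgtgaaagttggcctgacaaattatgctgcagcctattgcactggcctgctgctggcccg
Gm15500: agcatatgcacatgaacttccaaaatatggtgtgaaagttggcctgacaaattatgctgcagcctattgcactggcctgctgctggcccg
Rpl5-ps2: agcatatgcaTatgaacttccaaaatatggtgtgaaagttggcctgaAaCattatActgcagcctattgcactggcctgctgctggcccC

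Rps12, a small-subunit protein, lies at chr10:23785183-23787275 on the minus strand. Rps12-ps3, at chr19:59322290-59322783 on the plus strand, matched all 396 coding bases and is annotated as protein coding despite its name. Coding bases 20 to 109 are shown, with Rps12-ps10, at chr2:122219993-122220391 on the plus strand, for contrast.
Rps12: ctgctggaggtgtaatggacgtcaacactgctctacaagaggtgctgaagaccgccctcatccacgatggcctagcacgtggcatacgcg
Rps12-ps3: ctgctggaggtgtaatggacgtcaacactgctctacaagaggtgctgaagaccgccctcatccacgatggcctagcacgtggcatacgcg
Rps12-ps10: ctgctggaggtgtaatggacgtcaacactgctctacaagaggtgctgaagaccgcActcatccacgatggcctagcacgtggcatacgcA

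Rpl3, a large-subunit protein near the peptidyl transferase centre, lies at chr15:80077791-80091868 on the minus strand. Rpl3-ps1, a processed pseudogene at chrX:13202571-13203780 on the plus strand, differed from it at 2 of 1209 coding bases, 1 of them among the first 90.
Rpl3: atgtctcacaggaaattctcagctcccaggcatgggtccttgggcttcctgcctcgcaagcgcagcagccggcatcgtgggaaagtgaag
Rpl3-ps1: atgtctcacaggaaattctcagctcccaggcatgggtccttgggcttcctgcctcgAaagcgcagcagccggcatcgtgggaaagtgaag

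Such copies were common. A gene elsewhere in the genome was counted as a near-identical copy where at least 50% of its 31-nt words occurred in a member's transcripts. By this count 293 rows were copies, 4 of them members themselves (Rps3a2, Rps3a3, Rps12l1 and Rpl6l), and 68 of the 83 protein-coding members had at least 1. In 22 of the 83 the gene's own row held less than 50% of its family's TPM in siGFP CY, where the family is the gene and its copies. Levels of such genes are uncertain, because reads from identical sequence can be assigned to either row.

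Ribosomal protein genes held their largest share of RNA in cytoplasm and their smallest on chromatin in each of the 3 treatments. Their summed TPM was 16.8% ± 0.208 (SD, n = 3) of the library in siGFP CY, 11.9% ± 0.611 in siGFP NP and 5.27% ± 0.607 in siGFP CH. The large-subunit genes contributed 9.80% in CY and 3.14% in CH, and the small-subunit genes 7.02% and 2.13%. The 289 copies outside the 89 added 6.01% ± 0.136 in CY, 4.0% ± 0.143 in NP and 1.30% ± 0.178 in CH. In siPTBP1 the members' share was 16.7% ± 0.950 in CY, 10.9% ± 1.44 in NP and 5.58% ± 1.79 in CH. In siPTBP1+siPTBP2 it was 16.0% ± 0.557, 10.1% ± 0.490 and 4.65% ± 0.805. The widest spread was in siPTBP1 CH, where replicate 1 reached 7.57% and the lowest library 4.11%. No library of one fraction overlapped another fraction of the same treatment.

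**Figure D1:**
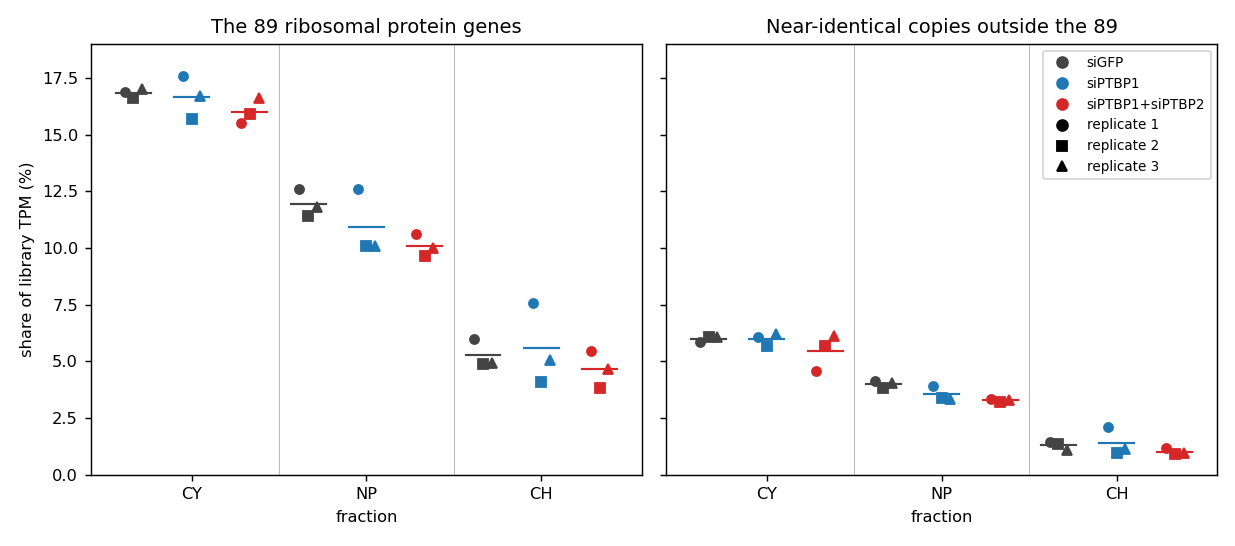
Share of each library's TPM (y axis, percent) held by the 89 ribosomal protein genes (left) and by their 289 near-identical copies (right), for 3 treatments in each fraction (x axis). Points are libraries, marker shape is the replicate and bars are group means; the members' share falls from 16.8% in siGFP CY to 5.27% in siGFP CH.

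Among single genes in siGFP CY, 60 of 89 lay above 1000 TPM, 81 above 100 TPM and 4 below 10 TPM. The highest mean was that of Rplp1, an acidic protein of the stalk, at 6740 ± 875 TPM. Among the other high members were Rpl41, which encodes the shortest of these proteins, at 5365 ± 725 TPM, and Rpl32 at 5165 ± 145 TPM. Each of the 11 highest members overlapped the next lower one over its 3 libraries, so this order is not resolved between neighbours. In siGFP CH 17 members averaged 1000 TPM or more. Rps12l1 was listed at 0 in 25 of 27 libraries and reached at most 0.11 TPM. It was the only member that did not reach 1 TPM in at least 3 libraries, so 88 members were tested among 20611 genes.

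Chromatin against cytoplasm gave the widest differences. In siGFP, 78 of the 88 members were lower in CH and 3 were higher (limma, Benjamini-Hochberg adjusted p under 0.05 over all genes). Over all genes tested 8.08% were called lower and 57.9% higher. The median log2 difference was -1.77 for the members and 0.95 for all genes, on the log2(TPM + 1) scale used throughout. With libraries scaled by the median ratio of genes, 82 members were lower and 2 higher, beside 4565 and 7095 of all genes, where the unscaled fit had 1665 and 11942. After quantile normalization 75 members were lower and 5 higher, beside 6439 and 4917 of all genes. The median of all genes moved from 0.95 to 0.26 and -0.12 under these scalings, and the members' median minus that of all genes was -2.72, -3.10 and -1.12. Without all replicate 1 libraries 81 members were lower and 5 higher, beside 2373 and 12051 of all genes.

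In siPTBP1 the counts were 77 lower and 6 higher, against 8.82% and 57.8% of all genes. In siPTBP1+siPTBP2 they were 77 and 5, against 9.24% and 60.4%. The same 76 members were called lower in all 3 treatments, of 79 called lower in any. The members' order was alike in separate sets of libraries: Spearman's rho over the 83 protein-coding genes was 0.89 between siGFP and siPTBP1 and 0.85 between siGFP and siPTBP1+siPTBP2, where points share the table's gene models and replicate numbers.

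The lowest member was Rpl32, of the large subunit, at 5006, 5198 and 5291 TPM in siGFP CY and 504, 701 and 593 TPM in siGFP CH. All CH libraries lay far below all CY libraries, a log2 difference of -3.12 (SE 0.30, adjusted p = 1.3e-08 by limma). Rps15a, of the small subunit, had 2426, 2362 and 2395 TPM in CY and 267, 396 and 314 TPM in CH, a difference of -2.89 (SE 0.24). Rpl26 was at -2.37 and Rpl24 at -2.36. In Rpl26 replicate 1 was low in both fractions, at 3096 TPM in CY and 494 TPM in CH, beside 4445 and 4417 TPM in CY and 1033 and 855 TPM in CH. The groups did not overlap in any of these 4 genes.

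The 7 members with a CH mean at or above the CY mean in siGFP were Rpl12, Rpl5, Rps12, Rpl3, Rpl10a, Rpl3l and Rpl32l, and the first 3 were called higher. Rpl12 had 38.6, 69.6 and 57.45 TPM in CY and 405, 414 and 556 TPM in CH. Its difference was 3.05 (SE 0.28, adjusted p = 6.9e-09 by limma), with every CH library above every CY library. In the knockdowns it stood at 59.4 TPM in CY and 478 TPM in CH for siPTBP1, and at 54.9 and 521 TPM for siPTBP1+siPTBP2. Rpl5 had 19.7, 31.1 and 44.0 TPM in CY and 151, 249 and 310 TPM in CH, a difference of 2.88 (SE 0.54, adjusted p = 8.7e-05). Rps12 had 106, 111 and 126 TPM in CY and 190, 250 and 477 TPM in CH, a difference of 1.31 (SE 0.31, adjusted p = 0.00094). Under median-ratio scaling Rps12 was at 0.24 (adjusted p = 0.556).

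These 3 genes had the 3 smallest shares of their own families in CY. The own row of Rpl12 held 1.49% of its family's TPM in siGFP CY and 34.5% in siGFP CH, with Gm10275 at 3620 ± 271 TPM in CY and 873 ± 130 TPM in CH. That of Rpl5 held 1.85% and 29.1%, with Gm15500 at 1671 ± 582 and 610 ± 284 TPM. That of Rps12 held 1.62% and 26.6%, with Rps12-ps3 at 6911 ± 325 and 846 ± 160 TPM. In CY the identical copy's row thus carried nearly all the TPM of each family, and in CH the own rows carried between 26.6% and 34.5%. How much of this division is real transcription of the copies was not tested.

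When each member's TPM was summed with its copies before the fit, an alternative chosen after seeing the data, all 3 directions turned. The sum for Rpl12 was 3680 ± 281 TPM in CY and 1334 ± 58.0 TPM in CH, a difference of -1.46 (adjusted p = 3.3e-08 by limma). For Rps12 it was 7035 ± 331 and 1153 ± 22.7 TPM, a difference of -2.61 (adjusted p = 7.3e-10). For Rpl5 it was 1703 ± 593 and 847 ± 347 TPM, a difference of -1.04 that was not called (adjusted p = 0.126), and that was called with replicate number as a block (adjusted p = 0.00086). Over the 85 summed families 79 were lower and 0 higher in siGFP CH, against 7.62% of all genes called lower in that fit, with a median of -1.86. The counts were 79 lower and 1 higher in siPTBP1, and 79 and 0 in siPTBP1+siPTBP2. Of all 20405 genes in the summed fit, 1554 were lower and 11924 higher in siGFP. These numbers were 1719 and 11895 in siPTBP1, and 1796 and 12419 in siPTBP1+siPTBP2.

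**Figure D2:**
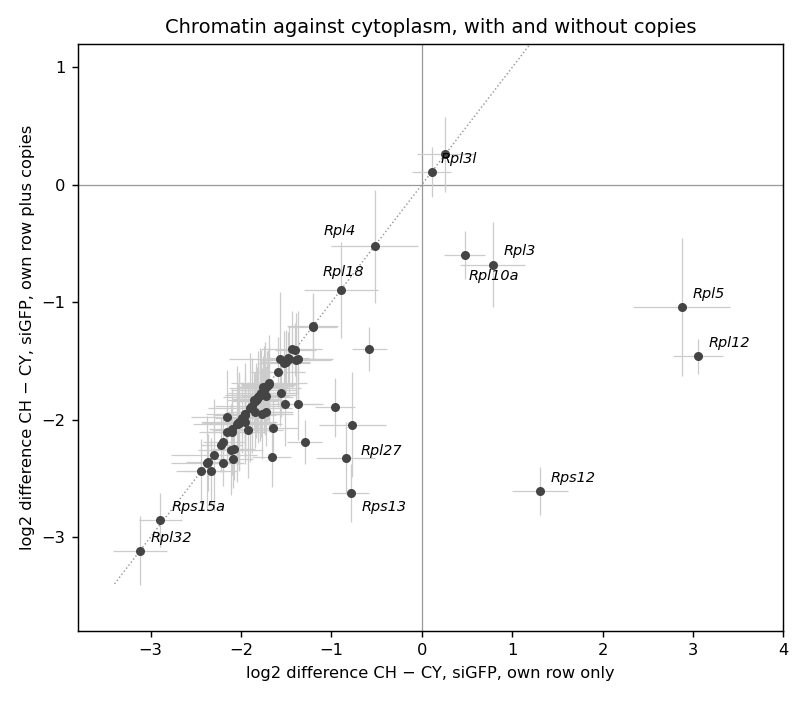
Log2 difference CH − CY in siGFP for each member's own row (x axis) and for the own row plus its near-identical copies (y axis), with standard errors from limma and the line of equality dotted. Rpl12 moves from 3.05 to -1.46, Rpl5 from 2.88 to -1.04 and Rps12 from 1.31 to -2.61, while Rpl32, without such copies, stays at -3.12.

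Rpl3 and Rpl10a were intermediate. Rpl3 had 445, 540 and 463 TPM in siGFP CY and 627, 816 and 1115 TPM in siGFP CH, so that the groups did not overlap, yet the difference of 0.79 was not called (SE 0.36, adjusted p = 0.059 by limma). It was called with the replicate block (adjusted p = 0.0186). Its own row held 17.2% of the family in CY and 47.6% in CH, and the sum was 0.68 log2 units lower in CH (adjusted p = 0.105). Rpl10a, which forms part of the mobile L1 stalk, had 861, 727 and 797 TPM in CY and 941, 940 and 1526 TPM in CH, a difference of 0.48 (SE 0.23, adjusted p = 0.069). With the block it was called (adjusted p = 0.0328). Rpl10a-ps1, a processed pseudogene with the same 648 coding bases, stood at 1859 ± 185 TPM in CY and 628 ± 49.7 TPM in CH, and the summed difference was -0.60 (adjusted p = 0.0133). Rpl3l, the paralog of Rpl3 known from heart and skeletal muscle, was at 2.44 TPM in CY and 2.77 TPM in CH. Rpl32l, a processed pseudogene, was at 0.48 TPM in CY and 0.76 TPM in CH.

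**Figure D3:**
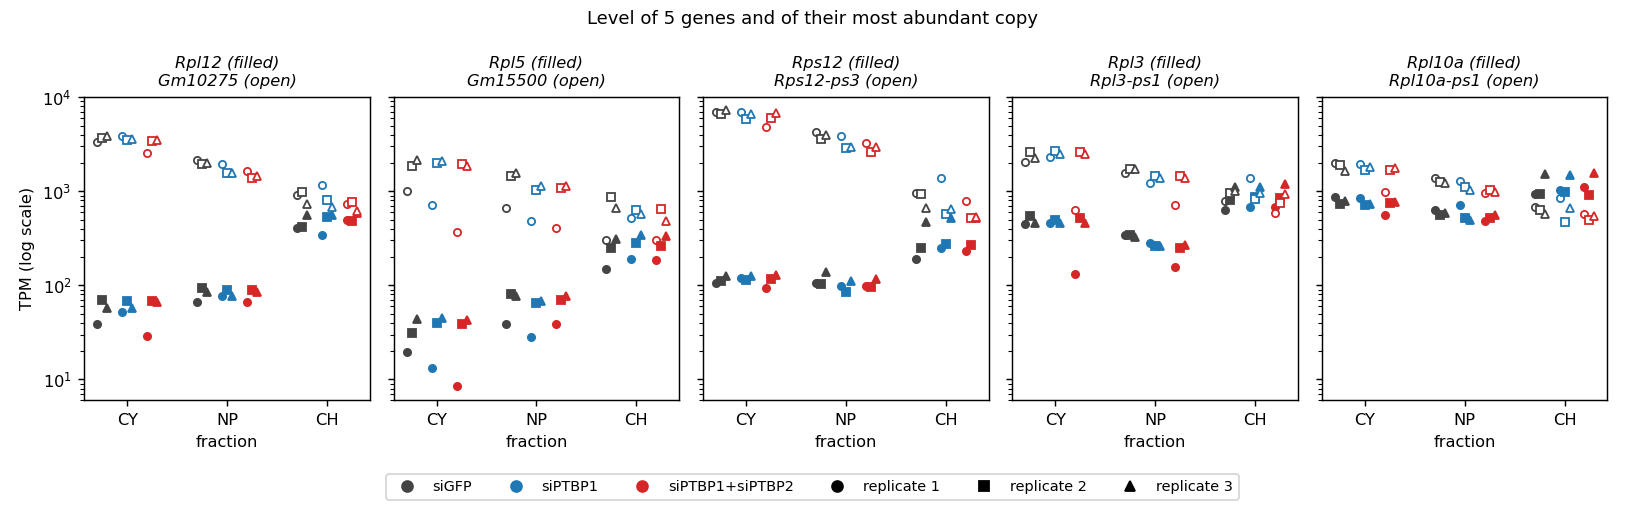
TPM (y axis, log scale) in all 27 libraries of 5 ribosomal protein genes (filled) and of each gene's most abundant copy (open), by fraction (x axis), treatment (colour) and replicate (shape). For Rpl12, Rpl5 and Rps12 the copy is far above the gene in CY, at 3620 against 55.2 TPM for Rpl12 in siGFP, and the gap narrows in CH, to 873 against 458 TPM.

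Other members moved in the same direction when copies were added, without changing sign. Rps13, whose own row held 4.72% of its family in siGFP CY, went from -0.79 to -2.63, and Rpl27, at 8.67%, from -0.84 to -2.33. Over the 5 members whose own row held under 10% of the family the median CH − CY difference was 1.31 by own rows and -2.33 by sums. Over the 51 members whose own row held 95% or more it was -1.83 by both. Rpl4, which had no copy by this count, stood out among the latter. Its levels were 1234, 2154 and 2360 TPM in siGFP CY and 773, 1631 and 1680 TPM in siGFP CH, overlapping, with a difference of -0.52 (SE 0.48, adjusted p = 0.347 by limma, 0.0316 with the block). Rpl18 was at 2626, 2081 and 2187 TPM in CY and 2164, 962 and 887 TPM in CH, a difference of -0.90 that was not called (adjusted p = 0.059, or 0.000516 with the block, by limma). Replicate 1 held the high CH value of Rpl18 and both low values of Rpl4. Rps7, at -0.77 (adjusted p = 0.073, or 0.0111 with the block), was the remaining member that was not called in siGFP, and its sum was called at -2.04.

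Nucleoplasm differed less from cytoplasm. In siGFP 9 members were lower in NP than in CY and 0 higher, against 0.461% and 12.3% of all genes, with a median of -0.53 beside 0.15 for all genes. In siPTBP1 29 were lower and 0 higher, against 3.88% and 13.6% of all genes, and in siPTBP1+siPTBP2 26 and 0, against 4.66% and 15.4%. With the replicate block 38, 57 and 52 members were lower and 2, 1 and 2 higher. The calls over all genes rose too, from 95, 800 and 960 lower to 977, 2775 and 2582, so the number called rests on how the shared replicate difference is treated. Leaving out any 1 of the 6 siGFP libraries left 1 to 4 members, beside 29 to 84 lower over all genes. For siPTBP1 the count was 27 without NP replicate 1, a fit whose count over all genes is not reported here. Without any other it was 9 to 19, beside 212 to 480 lower over all genes. For siPTBP1+siPTBP2 it was 44 without CY replicate 1, 16 and 13 without CY replicates 2 and 3, and 11 without NP replicate 2. In these fits 1068, 735, 757 and 273 of all genes were lower. Without all replicate 1 libraries 51, 62 and 66 members were lower, beside 1125, 3018 and 3042 of all genes. Over all genes the siGFP split was 2543 higher and 95 lower, 2171 and 852 under median-ratio scaling, and 1437 and 802 after quantile normalization, with 39 and 6 members lower under the latter scalings. The 8 members called lower in all 3 treatments were Rpl13a, Rpl14, Rpl32, Rpl34, Rpl35, Rps13, Rps15a and Rps20. Mitochondrially encoded RNA took 9.31% to 22.5% of the TPM in NP and at most 0.111% in CY, which lowers the TPM of other genes in NP. With members, mitochondrial rows and Mir6236, a single abundant row, left out of the library total, the siGFP median was -0.44 and 5 members were lower. All genes then had a median of 0.22, with 63 called lower, so both medians rose.

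Rpl13a, known also for silencing inflammatory mRNAs after its release from the ribosome, had 5457, 4632 and 4446 TPM in siGFP CY and 2805, 2165 and 2139 TPM in siGFP NP. The groups were separate, with a difference of -1.04 (SE 0.23, adjusted p = 0.0024 by limma). Rpl32 stood at -1.04 (adjusted p = 0.0205) and Rpl35 at -0.89 (adjusted p = 0.0448). Rpl8, at 4753 ± 489 TPM in CY and 2622 ± 531 TPM in NP, and Rpsa, the laminin receptor protein of the small subunit, at 4269 ± 416 and 2368 ± 476 TPM, had differences of -0.87 and -0.86. Neither was called (adjusted p = 0.199 and 0.195), and both were with the block (adjusted p = 0.00105 and 0.00162). At the other end were Rpl5 at 1.03, Rpl12 at 0.58, Rps29 at 0.40, Rpl18 at 0.23 and Rps27l at 0.19, all not called (adjusted p = 0.218 to 0.844). With the block Rpl5 and Rpl12 were called higher (adjusted p = 0.00138 and 0.0252), and with copies summed they were at -0.42 and -0.80. Rps29, a zinc-binding protein of the small subunit, was higher in NP in all 3 libraries, at 3249, 2697 and 2882 TPM beside 2232, 2162 and 2279 TPM in CY.

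Chromatin was also below nucleoplasm for most members. In siGFP 70 were lower in CH than in NP and 6 higher, against 5.48% and 46.0% of all genes, with medians of -1.30 and 0.68. Over all genes 9479 were higher and 1130 lower, against 5359 and 2818 under median-ratio scaling and 3954 and 4702 after quantile normalization. The 6 were Rpl12 at 2.48, Rpl5 at 1.85, Rpl3 and Rps12 at 1.29 each, Rpl10a at 0.90 and Rpl3l at 0.56, all by own rows. With copies summed 76 members were lower and 1, Rpl3l, higher, beside 1069 and 9464 of all genes. Rpl12 was then at -0.66 and Rps12 at -1.81, both called lower, and Rpl5 at -0.62, Rpl3 at -0.20 and Rpl10a at -0.10 were not called. This difference ran with coding length. Spearman's rho over the 83 protein-coding members was 0.56 between coding length and the CH − NP difference, and 0.66 with copies summed. For NP − CY it was -0.26, or -0.27 with copies summed. With copies summed, the 28 members with a coding sequence under 400 nt had a median CH − NP difference of -1.65, with all 28 between -2.06 and -1.04, and the 55 longer members a median of -1.29. The CH − NP difference also ran with the largest number of introns in an annotated transcript (rho 0.50), and less with the length of the gene (rho 0.13, or 0.25 with copies summed). Each is a description over genes that share libraries. By own rows, the 30 members that host an annotated small nucleolar RNA had a median CH − CY difference of -1.66, and the 53 that do not, -1.81. With copies summed these medians were -1.85 and -1.95.

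**Figure D4:**
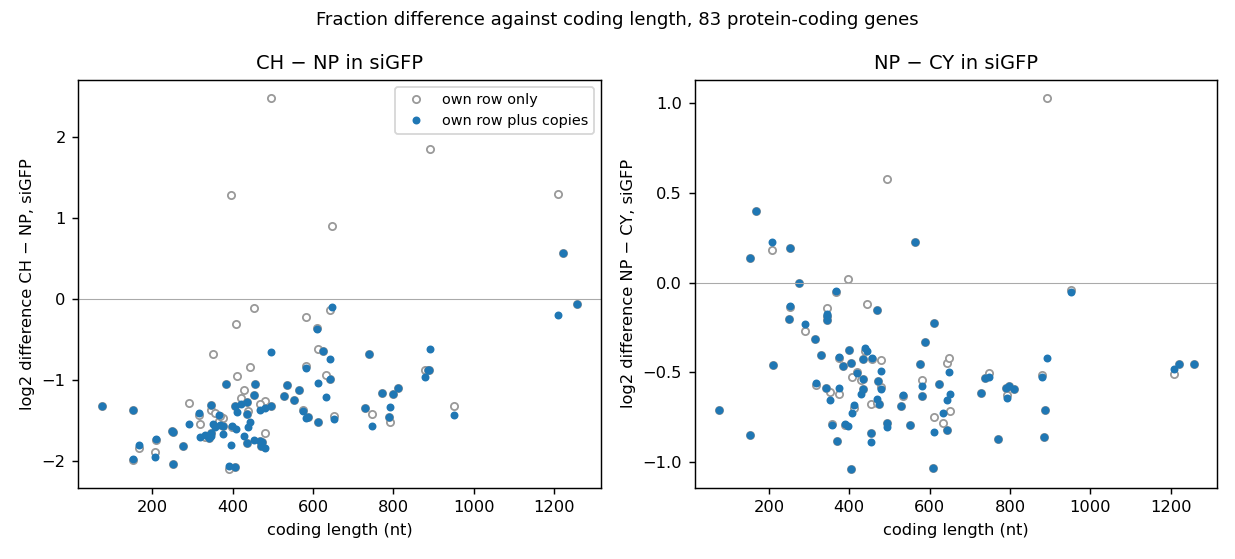
Log2 differences CH − NP (left) and NP − CY (right) in siGFP (y axes) against coding length in nt (x axes) for the 83 protein-coding members, by own row (open) and with near-identical copies summed (filled). With copies summed the CH − NP difference rises with length (Spearman's rho 0.66), and the 28 members under 400 nt lie between -2.06 and -1.04.

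Knockdown of the PTB proteins was checked on the targeted genes. Ptbp1 was at 502 to 611 TPM in siGFP CY, 110 to 144 TPM in siPTBP1 CY and 113 to 200 TPM in siPTBP1+siPTBP2 CY, with log2 differences of -2.15 and -1.99 (adjusted p = 0.000853 and 0.00249 by limma). In NP it was lower by both siRNA treatments (adjusted p = 0.00375 and 0.00478), and in CH the differences of -1.05 and -0.82 were not called. Ptbp2 was at 3.52 to 15.45 TPM in siGFP CY and 1.45 to 7.55 TPM in siPTBP1+siPTBP2 CY, and was not called in any fraction. All 10 pluripotency markers, among them Pou5f1 and Nanog, were at 1 TPM or more in all 27 libraries. Summed endoderm markers stayed at or below 21.9 TPM in any library. Summed neuron markers were at 179 to 292 TPM in CY, 86.5 to 140 TPM in NP and 75.9 to 163 TPM in CH. Most of this was Tubb3, at 182 TPM in siGFP CY beside Map2 at 3.02 TPM. Summed trophoblast markers reached 88.6 TPM in CY, 398 TPM in NP and 966 TPM in CH, and summed fibroblast markers 17.1, 74.8 and 155 TPM. In siGFP CH Krt8 and Krt18 were at 203.5 ± 278.5 and 174.1 ± 220.3 TPM, beside Hand1 at 5.25 TPM. Whether RNA of these marker lists has a part in the members' values was not tested.

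No member was called in either knockdown against siGFP, or between the knockdowns, in any fraction by limma. In CY the share of all genes called was 0.228% for siPTBP1 and 0.243% for siPTBP1+siPTBP2 against siGFP, and 0.0% between the knockdowns. In NP it was 0.16%, 0.155% and 0.00485%, and in CH 0.398%, 0.427% and 0.107%. At these background shares a count of 0 among 88 members is near the background. Counts at an unadjusted p under 0.05 by limma are given next in the same order of comparisons. CY had 1, 2 and 0 members, beside 909, 1023 and 147 of all 20611 genes tested. NP had 0, 4 and 0 members, beside 1006, 1081 and 151 of all genes. CH had 0, 1 and 8 members, beside 1371, 1431 and 662 of all genes. The standard error of a member's difference was 0.296 at the median and 0.173 to 0.567 in range, so changes of 2-fold could pass undetected: Ptbp1 in CH, at -1.05 with an SE of 0.30, was not called. Both knockdowns were compared with the same siGFP libraries.

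The members' medians nevertheless lay below those of all genes in several comparisons. In NP the median log2 difference was -0.21 for siPTBP1 and -0.29 for siPTBP1+siPTBP2 against siGFP, beside -0.01 for all genes in each. Of the 88 members, 51 (58.0%) were lower in 3 of 3 same-numbered pairs of libraries for siPTBP1 and 65 (73.9%) for siPTBP1+siPTBP2, against 25.3% of all genes tested in each. Without overlap between groups were 17 and 26 members, all lower, against 4.67% and 5.57% of all genes. Mitochondrially encoded RNA moved too, from 9.68% to 15.6% of TPM in the siGFP NP libraries to 9.31% to 20.2% in siPTBP1 and 15% to 22.5% in siPTBP1+siPTBP2. With members, mitochondrial rows and Mir6236 left out of the total the members' medians were -0.18 and -0.22, and after quantile normalization -0.09 and -0.15. The medians of all genes under these scalings are not reported here. Other genes of translation had like medians in NP, -0.31 and -0.36 for 19 other TOP genes and -0.24 and -0.30 for 34 ribosome biogenesis genes, with 0 called in each. Members share libraries and are no replicates of a condition, so these counts are descriptions.

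The members named next for each comparison are the lowest and highest among those with a mean of at least 10 TPM. Within NP the lowest for siPTBP1+siPTBP2 was Rpl35, with 544, 539 and 567 TPM in siGFP and 237, 357 and 418 TPM after the double knockdown. The groups did not overlap, and the difference of -0.74 was not called (SE 0.29, adjusted p = 0.69 by limma). Rps3a1, a small-subunit protein at the mRNA exit side, had 113, 207 and 226 TPM in siGFP, 79.3, 132 and 160 TPM in siPTBP1, and 59.7, 135 and 157 TPM in siPTBP1+siPTBP2. Its groups overlapped because replicate 1 was low throughout, but it fell in 3 of 3 pairs, by -0.55 and -0.68. With the replicate block the second difference was called (adjusted p = 0.0488), the only such call among the members, and with its copies summed and the block it was not. Its own row held 13.99% of its family in siGFP CY. Rpl7 was next lowest for siPTBP1, at -0.54. The highest for both knockdowns was Rpl18, at 3249, 2616 and 2252 TPM in siGFP NP and 4442, 3040 and 2507 TPM in siPTBP1+siPTBP2 NP, a difference of 0.27 (adjusted p = 1.0). Rplp0, the backbone of the stalk, was at 0.17 and 0.07. Between the knockdowns Rpl35 at -0.38 and Rpl32 at -0.32 were lowest in NP, and Rpl5 at 0.24 and Rpl39l at 0.13 highest.

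**Figure D5:**
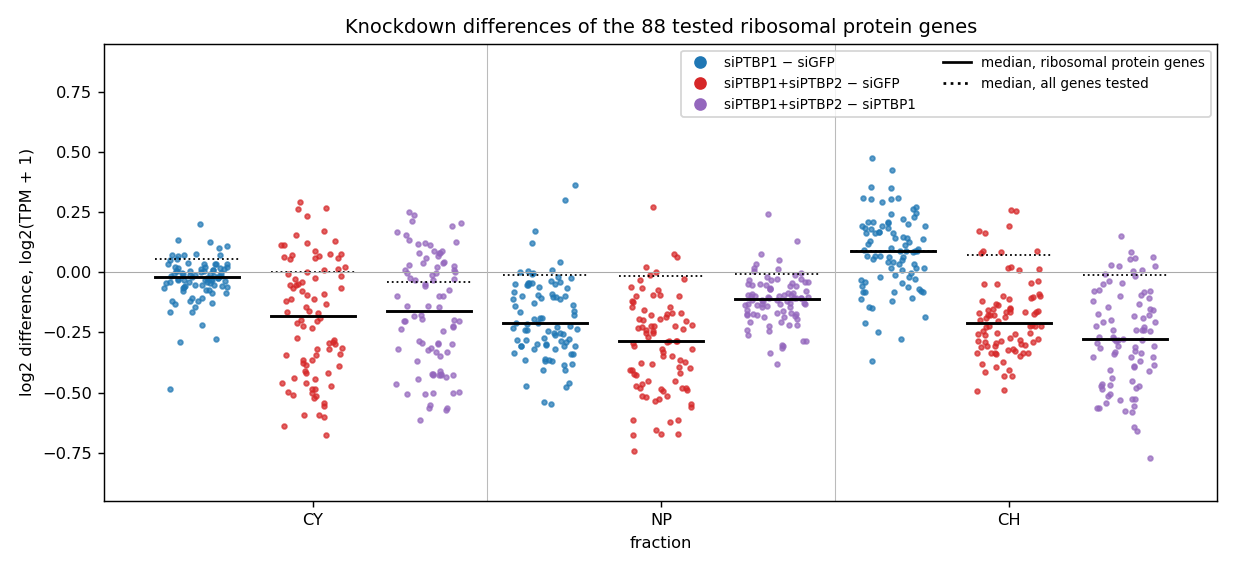
Log2 differences of the 88 tested members (points, y axis) between treatments within each fraction (x axis), with the median of the members (solid bar) and of all 20611 genes tested (dotted bar). In NP the members' medians lie at -0.21 and -0.29 against siGFP, beside -0.01 for all genes, and no point is called by limma.

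In cytoplasm the members' median was -0.02 for siPTBP1 and -0.18 for siPTBP1+siPTBP2, beside 0.06 and 0.00 for all genes. The lowest in siPTBP1 was Rpl39l, the testis-enriched paralog of Rpl39, with 35.0, 28.1 and 30.6 TPM in siGFP and 23.1, 19.3 and 23.8 TPM in siPTBP1. These did not overlap, with a difference of -0.48 (SE 0.23, adjusted p = 1.0 by limma). The next, Rpl39, was at -0.22, and the highest were Rpl7l1 at 0.20 and Rpl12 at 0.14. For siPTBP1+siPTBP2 1 library stood apart. In replicate 1 of siPTBP1+siPTBP2 CY, 40 of 88 members (45.5%) were more than 1.5 times below the lower of the other replicates, as were 40.6% of all genes tested. More than 1.5 times above the higher were 10 members (11.4%), against 8.69% of all genes tested. Rpl3 was at 132 TPM there and at 526 and 464 TPM in the others, and Rpl32 at 1919 beside 5082 and 5124 TPM. Without all replicate 1 libraries the median for siPTBP1+siPTBP2 was -0.04 beside 0.03 for all genes, and 0 members were called as before. The lowest and highest members of that comparison had this library as their most distant: Rpl36a at -0.64 had 280, 1073 and 1113 TPM, Rps6, the S6 kinase substrate, at -0.60 had 452, 1594 and 1662 TPM, and Rpl18 at 0.29 had 4487, 2084 and 2353 TPM. Rpl27, whose own row held under 10% of its family in siGFP CY, was at 0.27, and ranged from 0.029 to 0.456 with any 1 library left out. Between the knockdowns, Rpl36a at -0.61 and Rpl11, which binds MDM2 under nucleolar stress, at -0.57 were lowest, and Rps14 at 0.24 and Rpl27 at 0.21 highest.

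In chromatin the median was 0.09 for siPTBP1, the same as for all genes, and -0.21 for siPTBP1+siPTBP2, beside 0.07. Without all replicate 1 libraries these medians were -0.10 beside 0.06 and -0.25 beside 0.05, so the sign for siPTBP1 rests on replicate 1. In 3 of 3 same-numbered pairs 50 members (56.8%) were lower for siPTBP1+siPTBP2, against 13.7% of all genes, and 7 (7.95%) for siPTBP1, against 11.8%. For siPTBP1 the extremes were Rps4l at -0.37 and Rpl8 at -0.28, and Rpl30 at 0.48 and Rpl39 at 0.43. For siPTBP1+siPTBP2 they were Rps15a and Rps4l at -0.49 each, and Rpl10 at 0.26 and Rpl12 at 0.19, all with adjusted p = 0.715 or above. Between the knockdowns the median was -0.28, or -0.12 without replicate 1, and 61 members (69.3%) were lower in siPTBP1+siPTBP2 in 3 of 3 pairs, against 14% of all genes. Rpl39, with 522, 213 and 271 TPM in siPTBP1 and 164, 173 and 212 TPM in siPTBP1+siPTBP2, had a difference of -0.77 (SE 0.23, adjusted p = 0.505 by limma). The groups came within 1 TPM of each other, with replicate 1 of siPTBP1 far above the rest. In that library 44 of 88 members exceeded the other replicates by more than 1.5 times, against 9.16% of all genes. Rps15a was at -0.66 (adjusted p = 0.899). Rpl39 was called when replicate 2 of siPTBP1 CH was left out (-1.04, adjusted p = 0.0459). Rpl12, the gene furthest on the chromatin side, was at 458 ± 84.5, 478 ± 115 and 521 ± 52.7 TPM in CH of siGFP, siPTBP1 and siPTBP1+siPTBP2, a spread within the replicate error.

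No member was called for a difference of a knockdown's effect between fractions (limma), where the standard errors were 0.245 to 0.801. Across all genes 0.0437% and 0.00485% were called for the siPTBP1 effect in CH and in NP against that in CY, and 0.0582% and 0.00485% for siPTBP1+siPTBP2. No member reached an unadjusted p under 0.05 in these 4 tests, against 532, 215, 635 and 237 of all genes in the same order. For siPTBP1, CH against CY, Rpl39 was highest at 0.64 (SE 0.32) and Rpl30 at 0.53, and Rpsa and Rps4l were lowest at -0.30 and -0.29. NP against CY ran from Rps3a1 at -0.51 and Rpl7l1 at -0.48 to Rplp0 at 0.25 and Rpl18 at 0.20. For siPTBP1+siPTBP2, CH against CY ran from Rplp1 at -0.58 and Rps4l at -0.48 to Rpl3 at 0.68 and Rps24 at 0.53. With any 1 library left out, Rplp1 ranged from -1.15 to -0.145 and Rps4l from -0.827 to -0.095. Rpl3 then ranged from 0.053 to 1.044 and Rps24 from -0.075 to 0.877. With copies summed Rpl3 was at 0.447. NP against CY ran from Rpl8 at -0.48 and Rps3a1 at -0.46 to Rpl39 at 0.29 and Rpl30 at 0.27.

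Paralogs of ribosomal proteins, some of which replace the usual protein in particular tissues, were all detected. Rpl22l1 was at 230 ± 76.1 TPM in siGFP CY, 17.8% ± 3.92 of the level of Rpl22. Rps27l, a p53 target, was at 508 ± 40.1 TPM, 16.4% ± 2.23 of Rps27. Rpl7l1, which acts in pre-ribosome maturation, was at 146 ± 25.6 TPM, and Rpl10l, the testis paralog of Rpl10, at 56.6 ± 16.0 TPM, 4.68% ± 1.41 of the own row of Rpl10, which held 36.4% of its family. Rpl39l was at 31.2 ± 3.54 TPM, 3.73% ± 0.493 of Rpl39. Rpl3l was at 0.499% ± 0.0881 of the own row of Rpl3. Rps4l, related to Rps4x, was at 961 ± 87.8 TPM, 43.5% ± 5.87 of Rps4x. Of these 7, 6 were called lower in CH than in CY, from Rpl39l at -2.22 to Rpl7l1 at -1.21, and Rpl3l was at 0.11 and not called. Rpl39l was also lower in NP (-0.85, adjusted p = 0.0125 by limma).

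Ribosomal proteins outside the naming were like the members in CH: all 4 tested were lower than in siGFP CY, among them Rpl36al at -2.16, Fau, whose product releases a small-subunit protein, at -1.87, and Rack1 at -0.95. In this comparison 8.08% of all genes tested were called lower and 57.9% higher, so a higher call in CH is common. Of 19 other TOP genes of translation 10 were lower and 2 higher. The lower ones included Btf3 at -1.93 and Eif3f at -0.97, and the higher were Eif4a2 at 4.01 and Pabpc1, the poly(A)-binding protein, at 1.64. Of 34 ribosome biogenesis genes 7 were lower and 10 higher, the latter including Gnl3 at 3.14, Nop56 at 3.01, Nat10 at 2.32 and Polr1b at 1.52. Of 15 mTOR and TOP regulators 1 was lower and 9 higher, among them Rps6kb1 at 2.76, Tsc2 at 2.62 and Larp1, which binds the TOP tract, at 1.69. Of 8 chaperones of single ribosomal proteins 1 was lower, Tsr2, the chaperone of Rps26, at -0.69. These lists were chosen with results of these data known. Nuclear noncoding RNAs, which mark chromatin, were higher in CH in 6 of 6, with Meg3 at 1371 TPM beside 37.4 TPM in CY.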

How the data were processed

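Stranded polyA+ libraries were sequenced from 27 samples. The authors deposited a table of TPM per gene, made with STAR and kallisto on mm10 per the submitters' processing notes, with no versions. The sources used here do not give the annotation release. Coordinates, gene types and sequences came from GENCODE M21 (GRCm38), which held all 89 members. TPM keeps no depth, so no counting error is given, and the labels do not say whether replicates were separate cultures, so p-values measure the spread between these samples.

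The 20611 genes that reached 1 TPM in 3 or more libraries entered a limma fit (3.58.1, R 4.3.3) of log2(TPM + 1), with 1 mean per group, 18 residual degrees of freedom, a robust trended eBayes prior and 20 two-sided contrasts. A pseudocount understates changes of low genes. Genes were called at a Benjamini-Hochberg adjusted p under 0.05 over all genes. The fit was tested on simulated data with independent noise in each library. That simulation held no shared replicate difference, so it does not cover the one seen in these data. Levels are means ± SD with n = 3.

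Same-numbered libraries deviated together: over 108 pairs deviations from group means correlated with a minimum of 0.130 and a median of 0.365, against a median of -0.213 for libraries sharing neither number nor group. Replicate number as a block (16 residual degrees of freedom) was therefore an alternative, and the pairing comes from the data. Others were scalings, pseudocounts, filters, left-out libraries and summed copies.

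Members and lists were chosen with earlier results of these data known. Named are members with CH at or above CY in siGFP, the 5 highest and 5 lowest at a mean of at least 10 TPM for CH − CY and NP − CY, per knockdown contrast the called members or else the 2 highest and 2 lowest, 7 paralogs, up to 4 genes per list by adjusted p, and the targets. Rpl4, Rpl18 in CH, Rps7, Rps13, Rpl27 and the members printed for a library that stood apart were named after their values were seen. Some genes that this rule names are not reported here.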

Additional observations from a re-analysis of the deposited data

How the results depend on the processing

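Counts of members called kept within 1.5 times of the main count under all 12 other settings for CH − CY and CH − NP, and 0 members were called in the knockdown comparisons under each of them, except 1 in siPTBP1+siPTBP2 against siGFP in NP with the replicate block. NP − CY counts of members, higher and lower calls together, moved. At most 2 members were higher in any of the fits listed next. In siGFP 9 members became 40 with the replicate block, 39 with median-ratio scaling, 5 with members, mitochondrial rows and Mir6236 left out of the total, 37 with copies summed and the replicate block, 37 with the compared groups only and 53 without all replicate 1 libraries. In siPTBP1 29 became 58 with the block, 15 with quantile normalization, 14 with the rows left out of the total, 19 with no filter, 59 with copies summed and the block, and 63 without replicate 1. In siPTBP1+siPTBP2 26 became 54 with the block, 53, 13 and 15 with those 3 scalings, 52 with copies summed and the block, 6 with the compared groups only and 67 without replicate 1. Calls lower over all genes moved as well, not always in the same direction. Higher calls over all genes, 4853 with the block in siGFP, are left out of these numbers. In the order of settings given, 95 became 977, 852, 63, 955, 202 and 1125 in siGFP. For siPTBP1, 800 became 2775, 1875, 371, 529, 2732 and 3018. For siPTBP1+siPTBP2, 960 became 2582, 2429, 2343, 446, 2547, 97 and 3042. Leaving out 1 library at a time gave 1 to 4, 9 to 27 and 11 to 44, and 0 to 1 between the knockdowns in CH. Calls lower over all genes moved there too, in siGFP from 95 to between 29 and 84. In siPTBP1, 800 became 212 to 480, except without NP replicate 1, where the count over all genes is not reported here. In siPTBP1+siPTBP2, 960 became 1068, 735 and 757 without CY replicates 1, 2 and 3, and 273 without NP replicate 2. The fit that called 1 member between the knockdowns in CH had 16 lower over all genes. Directions reversed for Rpl3l CH − CY with median-ratio scaling (-0.65) and quantile normalization (-1.37), and for Rpl32l with the latter (-0.91). With copies summed, with or without the block, CH − CY reversed for Rpl10a (-0.60), Rps12 (-2.61), Rpl5 (-1.04) and Rpl12 (-1.46), NP − CY for Rpl12 (-0.80), and, called only with the block, CH − CY for Rpl3 (-0.68). Rpl5 NP − CY turned to -0.42 without a call in either fit, and 5 of the 6 members higher in CH than in NP turned negative. Apart from summing, which adds other rows by construction, the cause was not tested. Summed copies were chosen after seeing the data. TPM keeps no depth, so the counting error of low members is unknown.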
